A study of Arabidopsis thaliana with 4 samples.

Results

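Of 27206 nuclear genes measured in late Arabidopsis thaliana seeds, 85 had both wild-type values at most 3 and both ddcc values at least 8 on the deposited scale of normalised read counts. Of these, 16 loci are left out here by name, among them SDC, several expansin genes and retrotransposon-derived loci, and 2 further named loci did not meet the thresholds. The remaining 69 genes, low in wild type and present in ddcc, are described below and called members. The thresholds used the same 4 libraries whose values follow, so the difference between genotypes in the members is a description, with no test. The word silent would hold for 6 members with no read in either wild-type library. Another 23 members had 1 to 3 wild-type reads and 40 had at least 4, so wild type is called low here.

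The ddcc mutant is named for the methyltransferase genes DRM1, DRM2, CMT2 and CMT3. RNA came from whole seeds whose embryos were at the post-mature green stage, late in seed development. There were 2 ddcc libraries and 2 wild-type libraries, both genotypes in the Columbia background and grown in a greenhouse, and about 25 ng of RNA was amplified for each. The labels do not give the alleles, the number of plants behind a replicate or the pedigree of the mutant. DRM2 had values of 4.85 and 8.33 in ddcc, against 39.3 and 39.6 in wild type. DRM1 had no read in any library. CMT2 had 2 reads over the ddcc libraries, against 1 over the wild-type libraries, and CMT3 had 2 against 8, too few to check the labels with.

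DNA methylation in plants is placed on cytosines in the CG, CHG and CHH contexts, where H is any base but G. MET1 copies CG methylation after replication, CMT3 and CMT2 act through histone marks, and DRM2 is guided by small RNAs made with the polymerase RDR2. Such methylation is best known for keeping transposons and repeat-linked genes quiet. A gene whose upstream region holds repeats can come under the same control, as is known for SDC. Many other genes are low in late seeds because they belong to roots, leaves or seedlings.

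Upstream sequences are shown for the member with the highest ddcc value, and for members whose identity as copies or whose repeats bear on how their values are read. Each is the stretch of 250 bases before the annotated start of the gene on the plus strand, from the RefSeq TAIR10.1 assembly, whose nuclear chromosome sequences are those of the build TAIR10 used by the study. Capitals mark the letters TATAAA, the core of a TATA box, on either strand (TTTATA on the other). The first, at chr5:9206125-9206374, lies before AT5G26270, the member with the highest ddcc value.
AT5G26270: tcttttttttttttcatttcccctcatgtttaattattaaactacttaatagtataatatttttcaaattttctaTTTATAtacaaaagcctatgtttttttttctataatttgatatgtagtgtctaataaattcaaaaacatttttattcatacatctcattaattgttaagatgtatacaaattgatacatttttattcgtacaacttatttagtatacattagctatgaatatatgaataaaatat
The next pair, at chr2:8568319-8568568 and chr3:20258753-20259002, belongs to AT2G19850 and AT3G54730, whose transcripts are near-identical copies. The sequence before AT3G54730 holds the letters and the one before AT2G19850 does not.
AT2G19850: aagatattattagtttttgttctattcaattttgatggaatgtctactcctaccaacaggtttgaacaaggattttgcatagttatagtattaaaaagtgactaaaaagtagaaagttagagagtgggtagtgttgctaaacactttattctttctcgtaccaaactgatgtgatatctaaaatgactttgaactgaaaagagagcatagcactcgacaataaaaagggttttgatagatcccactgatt
AT3G54730: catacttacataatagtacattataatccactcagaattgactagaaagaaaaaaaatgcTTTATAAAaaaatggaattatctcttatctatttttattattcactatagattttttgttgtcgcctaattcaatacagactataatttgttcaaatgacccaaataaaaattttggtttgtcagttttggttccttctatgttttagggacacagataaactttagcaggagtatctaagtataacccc
ESM1, at chr3:4729149-4729398, lies at the end of a tandem repeat.
ESM1: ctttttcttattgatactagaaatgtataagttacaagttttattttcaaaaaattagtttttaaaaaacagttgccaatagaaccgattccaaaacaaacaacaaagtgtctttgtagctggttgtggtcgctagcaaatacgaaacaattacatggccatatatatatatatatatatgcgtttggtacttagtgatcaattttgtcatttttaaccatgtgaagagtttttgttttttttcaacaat
AT3G60950 lies at chr3:22524225-22524474, and its upstream sequence is shared base for base with AT3G61030, at chr3:22585405-22585654.
AT3G60950: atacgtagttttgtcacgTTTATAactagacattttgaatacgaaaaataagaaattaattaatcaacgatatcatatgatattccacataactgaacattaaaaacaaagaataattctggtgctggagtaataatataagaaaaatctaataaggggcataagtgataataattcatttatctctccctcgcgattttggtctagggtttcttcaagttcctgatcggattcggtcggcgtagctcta

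In ddcc the members ranged from a mean of 8.38 to 55.5 normalised read counts with a median of 12.5, and in wild type from 0 to 2.64 with a median of 1.40. These values are small numbers of reads. A member had 14 to 93 reads over the ddcc libraries, with a median of 21, and 0 to 7 over the wild-type libraries, with a median of 4. Gene reads totalled 1122934 for replicate 1 and 1166635 for replicate 2 of ddcc. The wild-type totals were 3416071 for replicate 1 and 1292023 for replicate 2. The members took 892 and 905 of these reads in ddcc, against 188 and 57 in wild type, or 0.0794% and 0.0776% against 0.0055% and 0.00441%. Because 1 read was worth about 1.18 and 1.21 in ddcc but 0.531 in wild-type replicate 1 and 1.32 in the other, the first wild-type library resolved low levels best. In these bulk samples fewer cells that express a gene and less RNA per cell cannot be told apart.

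**Figure D1:**
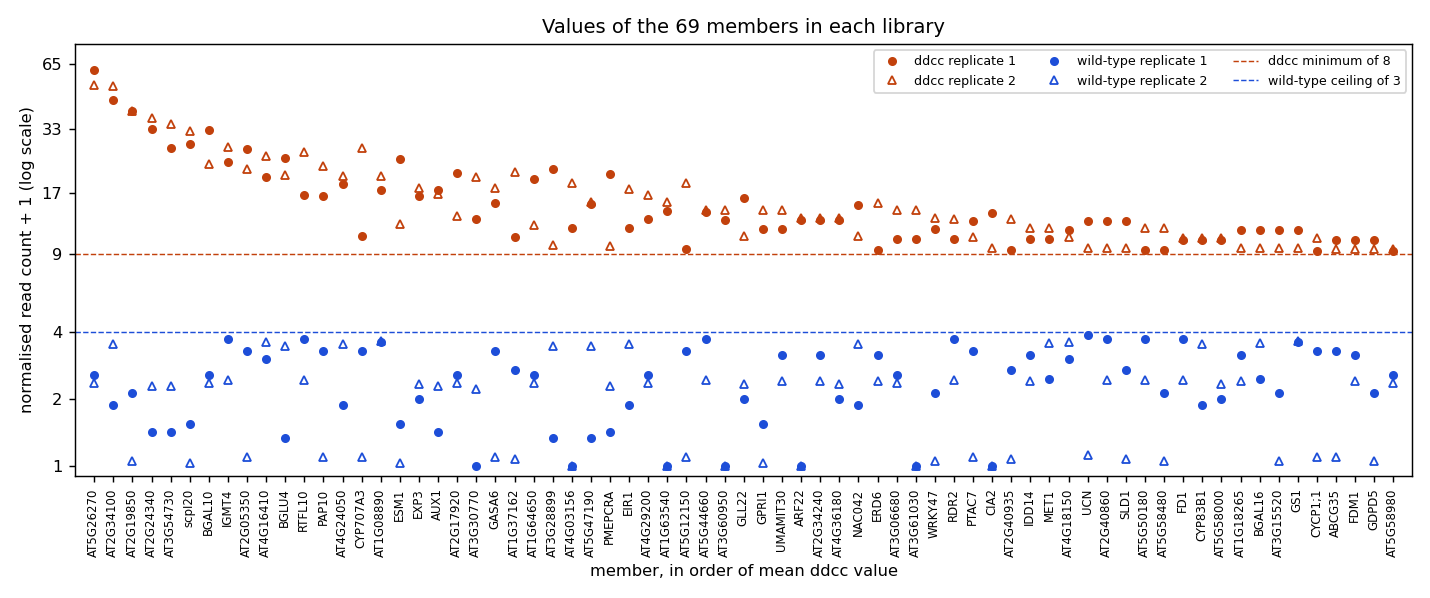
Normalised read count plus 1 on a log scale for each of the 69 members, in order of their mean ddcc value, in ddcc replicates 1 and 2 (orange) and wild-type replicates 1 and 2 (blue), with the 2 thresholds as dashed lines. AT5G26270 stands highest, and 34 members have a ddcc mean under 12, near the threshold.

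One field of the labels, the source name, calls the second wild-type library ddcc, whereas its other labels give wild type. The column headers of both wild-type tables say replicate 2, although their values differ. The levels of DRM2 in both wild-type libraries were alike, as given above. The label of that library was taken as wild type. With the named loci left out as for the 69 members, the thresholds gave 112 genes without that library and 233 without wild-type replicate 1.

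The 85 genes are 0.312% of the nuclear genes, and the mirrored thresholds, with both ddcc values at most 3 and both wild-type values at least 8, were met by 7 genes, or 0.0257%. With libraries scaled to equal nuclear totals the numbers were 127 and 4. In all, 12671 nuclear genes were at most 3 in both wild-type libraries, of which 8785 had no read in ddcc either, and 0.671% met the ddcc minimum. At the ceiling, the members nearest to it were UCN at 2.89 and FD1 and IGMT4 at 2.74 in wild-type replicate 1, while AT1G16690, AT1G28580 and VRN5 at 3.20 fell just outside. At the minimum, AT5G58980, CYCP1;1 and AT5G50180 stood just inside at 8.28, 8.32 and 8.35 in ddcc replicate 1. DREB1A, UKL4 and AT5G49100 stood just outside at 7.50, 7.50 and 7.43. The wild-type replicate 1 values just inside the ceiling stood for 5 reads and those just outside for 6, and the deciding ddcc values just inside the minimum for 7 reads and those just outside for 6.

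**Figure D2:**
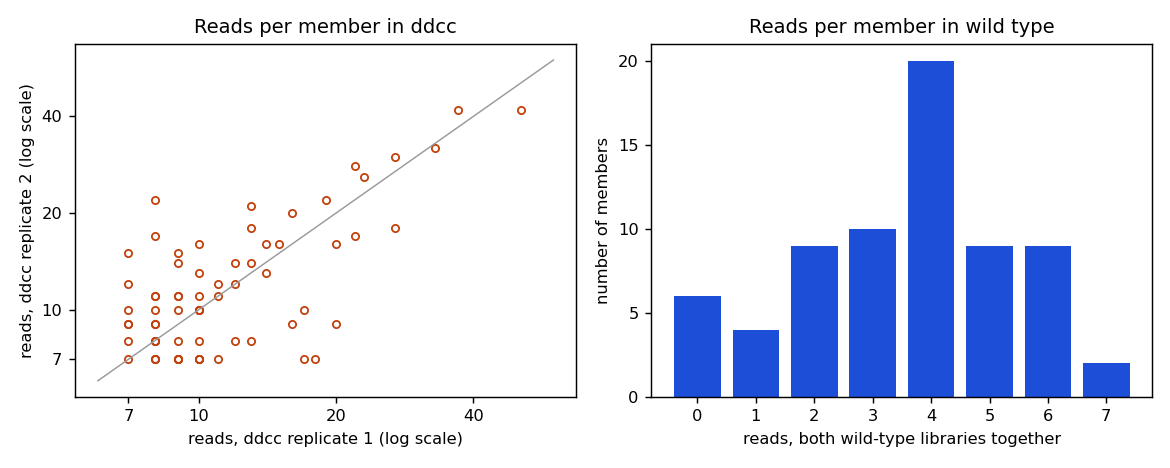
Left, whole reads per member in ddcc replicate 2 against ddcc replicate 1, both on log scales, with a line of equality. Right, the number of members by their reads in both wild-type libraries together, where 6 members have 0 reads and none has more than 7.

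The thresholds asked for both ddcc values to be at least 8 and so kept out genes such as DREB1A with 1 low replicate, and the likeness of the ddcc replicates in the members is a description. The higher of the ddcc values exceeded the lower by 1.24 times in the median member, and by at least 2 times in 6 members. These were CYP707A3, AT3G28899, PMEPCRA, AT5G12150, AT1G37162 and ESM1. Replicate 2 was the higher one in 43 members and replicate 1 in 26.

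In the limma fit of genotype across all 15780 tested genes, all 69 members were tested and 53 were called higher in ddcc at an adjusted p under 0.05, where 3.03% of all genes tested were called higher and 6.48% in either direction. Nothing is read from this count, since the thresholds used the same contrast. Here and below, counts at an unadjusted p have no share of all genes beside them, so nothing is read from those counts either. The median log2 fold change of the members, on the scale of log2(value + 1.56), was 2.41, against 0.02 for all genes tested. Leaving out ddcc replicate 1 or 2 left limma with 0 members called (62 and 64 were higher where p, unadjusted, was under 0.05). Leaving out wild-type replicate 1 or 2 left 28 and 23.

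AT5G26270, which encodes a protein of no annotated function, had 60.1 and 51.0 normalised read counts in ddcc, against 1.57 and 1.37 in wild type. It spans 9206375 to 9208136 on chromosome 5 and overlaps a long noncoding RNA locus. Its ddcc libraries held 93 reads and its wild-type libraries 4. The groups do not overlap in any member, since the thresholds keep them apart. AT2G34100, annotated as a protein like those of nonsense-mediated mRNA decay, had 43.8 and 50.7 in ddcc, against 0.88 and 2.52 in wild type. Its annotated span overlaps 5 other loci, so its reads may come from any of them. In TAIR10.1 coordinates AT2G34100 spans 14399534 to 14413489 on chromosome 2, AT2G24340 spans 10355430 to 10359546 on chromosome 2 and scpl20 spans 7550238 to 7553375 on chromosome 4.

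AT2G24340, annotated as a DNA-binding transcription factor, had 32.0 and 36.2 in ddcc, against 0.422 and 1.28 in wild type, and overlaps a microRNA locus. The serine carboxypeptidase-like gene scpl20 had 27.3 and 31.4 in ddcc, against 0.536 and 0.0241 in wild type, the second wild-type value standing for 0 reads. With 49 reads against 1, its read ratio was 77.3, with a 95% interval of 13.2 to 3114 that covers counting error only. The uncharacterized AT2G05350 had 25.9 and 20.7 in ddcc, against 2.30 and 0.0928 in wild type. AT4G16410, also uncharacterized, had 19.0 and 24.1 in ddcc, against 2.03 and 2.62 in wild type. It overlaps the protein-coding AT4G16400, so its reads may come from that gene. AT4G16400 had 19.1 and 27.6 in ddcc, against 11.5 and 13.1 in wild type.

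Per kilobase of transcript the order was different. AT4G03156, a small GTPase-like gene, led with 61.4 normalised read counts per kb in ddcc, ahead of AT5G26270 at 57.3 and AT3G28899 at 44.8, while ABCG35 was lowest at 1.85. The annotated transcripts of AT4G03156 and AT3G28899 are short, at 234 and 332 bases, with 24 and 25 reads in ddcc. AT3G28899 also overlaps a protein-coding locus, and AT4G03156 has copies elsewhere of 95.9% identity over 123 bases. AT4G03156 had values of 10.8 and 17.9 in ddcc, against no read in wild type. Against a floor of 3 reads over the wild-type libraries, it was 12.6-fold higher in ddcc. Such folds against the floor leave out the counting error of the ddcc reads.

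**Figure D3:**
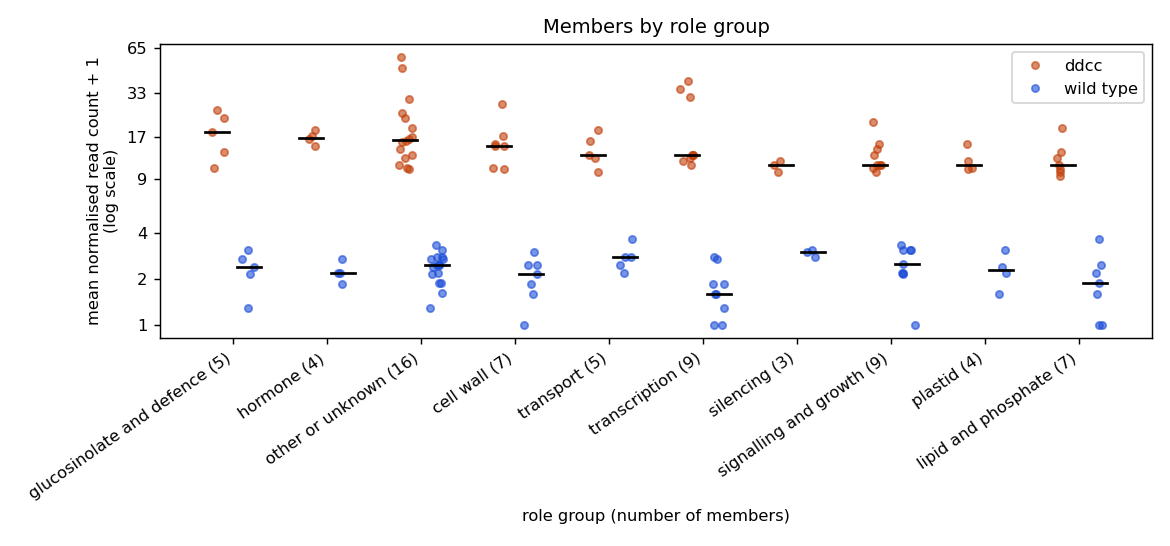
Mean normalised read count plus 1 on a log scale for each member in ddcc (orange) and wild type (blue), by role group assigned from the annotation after the values were seen, with black bars for medians. The highest members are in the group of other or unknown roles and in transcription.

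Among 9 members in transcription, the highest were AT2G19850, AT2G24340 and AT3G54730. AT2G19850, annotated as a transcription repressor, had 39.0 and 38.7 in ddcc, against 1.12 and 0.0476 in wild type. AT3G54730, annotated likewise, had 26.1 and 33.7 in ddcc, against 0.422 and 1.28 in wild type. The transcripts are 98.2% identical to each other over 1259 bases, and OFP9, of the OVATE family of repressors, is a near-identical relative of both. OFP9 had 2.42 and 3.59 in ddcc, against no read in wild type. Reads of such copies can be split or assigned to the wrong one, so their levels are uncertain relative to each other. In the 1000 bases upstream of either member no copy of at least 100 bases was found elsewhere in the genome. In TAIR10.1 coordinates AT2G19850 spans 8568569 to 8569890 on chromosome 2 and AT3G54730 spans 20259003 to 20260458 on chromosome 3.

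GPRI1, also known as GLK1, a factor for chloroplast development, had 10.7 and 13.2 in ddcc, against 0.536 and 0.0241 in wild type, from 20 reads against 1. Its relative GLK2 was at 88.3 and 72.8 in ddcc, against 47.5 and 68.01 in wild type, and was not called (limma adjusted p = 0.336). CIA2, which promotes genes of protein import into chloroplasts, had 12.9 and 8.63 in ddcc, against no read in wild type. It was 9.46-fold higher against the floor. Its relative CIL had 21.3 and 21.8 in ddcc, against 23.2 and 25.0 in wild type and was not called (adjusted p = 0.844). ARF22, an auxin response factor in a cluster of near-identical genes, had 11.8 and 12.1 in ddcc, against no read in wild type. It was 10.5-fold higher against the floor. The closest relative ARF21 had no read in any library. The others were NAC042, WRKY47 and IDD14, with ddcc means of 11.9, 11.4 and 10.2 and wild-type means of 1.70, 0.586 and 1.78. In TAIR10.1 coordinates GPRI1 spans 8855302 to 8857758 on chromosome 2, CIA2 spans 23167774 to 23171025 on chromosome 5 and ARF22 spans 12556005 to 12559082 on chromosome 1.

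Hormone genes were 4. CYP707A3, which breaks down abscisic acid, the hormone that holds seeds dormant, had 9.85 and 26.1 in ddcc, against 2.30 and 0.0928 in wild type. The related CYP707A1 had 5.79 and 2.56 in ddcc, against 5.04 and 7.74 in wild type and was not called (adjusted p = 0.656). AUX1, an auxin uptake carrier, had 16.5 and 15.8 in ddcc, against 0.422 and 1.28 in wild type. The auxin efflux carrier gene EIR1, also called PIN2, had 10.8 and 16.7 in ddcc, against 0.88 and 2.52 in wild type. GASA6, a gibberellin-regulated gene, had 14.3 and 16.9 in ddcc, against 2.30 and 0.0928 in wild type. In TAIR10.1 coordinates CYP707A3 spans 18368532 to 18371021 on chromosome 5, AUX1 spans 15972876 to 15977180 on chromosome 2, EIR1 spans 23100516 to 23105228 on chromosome 5 and GASA6 spans 28053030 to 28054149 on chromosome 1.

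Cell wall genes were 7. The beta-galactosidase gene BGAL10 had 31.6 and 22.0 in ddcc, against 1.57 and 1.37 in wild type, and its relative BGAL16 had 10.6 and 8.56 in ddcc, against 1.45 and 2.57 in wild type. The expansin gene EXP3, whose product loosens walls, had 15.4 and 16.9 in ddcc, against 0.993 and 1.32 in wild type. PMEPCRA, a pectin methylesterase gene, had 19.7 and 8.83 in ddcc, against 0.422 and 1.28 in wild type. AT1G63540, for a hydroxyproline-rich protein, had 13.04 and 14.5 in ddcc, against no read in wild type, 12.1-fold higher against the floor. AT4G29200, related to beta-galactosidases, and the glycosyl hydrolase gene AT5G58480 had ddcc means of 13.8 and 9.58 and wild-type means of 1.47 and 0.586. In TAIR10.1 coordinates BGAL10 spans 25537074 to 25541529 on chromosome 5, EXP3 spans 15787523 to 15790139 on chromosome 2 and AT1G63540 spans 23566958 to 23569495 on chromosome 1.

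Glucosinolate and defence genes were 5. Glucosinolates are sulphur compounds that Brassicaceae split into toxic products when tissue is damaged. IGMT4, a methyltransferase of indole glucosinolates, had 22.5 and 26.5 in ddcc, against 2.74 and 1.44 in wild type. The beta-glucosidase gene BGLU4 had 23.5 and 19.5 in ddcc, against 0.327 and 2.47 in wild type. CYP83B1, of indole glucosinolate synthesis, had 9.46 and 9.68 in ddcc, against 0.88 and 2.52 in wild type. ESM1, a GDSL lipase-like protein known to steer glucosinolate breakdown away from nitriles, had 23.3 and 11.3 in ddcc, against 0.536 and 0.0241 in wild type. With 29 reads against 1, its depth-corrected read ratio was 45.7, with a 95% counting interval of 7.58 to 1868. GLL22, a relative of ESM1 at 73.1% nucleotide identity, had 15.2 and 9.87 in ddcc, against 0.993 and 1.32 in wild type. In TAIR10.1 coordinates IGMT4 spans 7398814 to 7400736 on chromosome 1, BGLU4 spans 22155559 to 22158272 on chromosome 1, ESM1 spans 4729399 to 4731847 on chromosome 3 and GLL22 spans 20154154 to 20156520 on chromosome 1.

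A repeat lies next to ESM1. The first 480 bases of its transcript have 3 further copies upstream, of 99.4% to 99.6% identity, which start at 4726956, 4727765 and 4728596 on chromosome 3, while the gene starts at 4729399. The starts are 809, 831 and 803 bases apart. The longest exact direct repeat in the 1000 bases before the gene was 99 bases, the longest among the members, whose median was 11. Of 68 members with a gene model, 1 (1.47%) had such a repeat of at least 30 bases, against 2.22% of all nuclear genes.

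Lipid and phosphate genes were 7. PAP10, a purple acid phosphatase, had 15.5 and 21.6 in ddcc, against 2.30 and 0.0928 in wild type. The lipid-binding protein genes AT3G60950 and AT3G61030 had no read in wild type, with 11.9 and 13.3 in ddcc for the one and 9.57 and 13.2 for the other. Against the floor they were 11.04-fold and 9.99-fold higher. Stretches of up to 562 bases of the AT3G60950 transcript recur without mismatch in and beside AT3G61030, and their 1000 upstream bases differ at 0 positions, so their reads cannot be told apart. The related NTMC2T4, of 98.6% identity over 141 bases of AT3G60950, was at 201 and 136 in ddcc, against 151 and 143 in wild type (adjusted p = 0.746). SLD1, a sphingolipid desaturase gene, GDPD5, AT5G58980, annotated as a ceramidase, and GS1, of the haloacid dehalogenase-like hydrolases, had ddcc means of 8.38 to 10.2. In TAIR10.1 coordinates PAP10 spans 7120372 to 7123079 on chromosome 2, AT3G60950 spans 22524475 to 22530306 on chromosome 3 and AT3G61030 spans 22585655 to 22590853 on chromosome 3.

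Transport genes were 5. AT1G08890 and ERD6, which lies within 100 kb of it, sugar transporter-like genes of the major facilitator superfamily, had 16.6 and 19.3, and 8.45 and 14.3, in ddcc. In wild type the first had 2.61 and 2.67 and ERD6 had 2.16 and 1.41. Of the genes between and beside them in this family, ESL1 was not called, at 12.1 and 23.8 in ddcc, against 42.9 and 16.8 in wild type, and AT1G08900 was too low to test. AT1G64650, UMAMIT30 and ABCG35 had ddcc means of 14.9, 11.97 and 8.97.

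Signalling and growth genes were 9, led by RTFL10, of a family of small growth-restraining peptides, with 15.6 and 25.1 in ddcc, against 2.74 and 1.44 in wild type. It overlaps a protein-coding and a noncoding locus, so its reads may be theirs. The kinase gene UCN, which restrains ovule integument growth, had 11.7 and 8.60 in ddcc, against 2.89 and 0.115 in wild type. Besides AT4G03156, described above, AT5G12150, AT4G36180, AT4G18150, AT2G40860, AT5G50180 and CYCP1;1 had ddcc means of 8.98 to 13.2. Plastid genes were 4, with ddcc means of 9.56 to 14.4. They were AT5G47190, a ribosomal protein gene, PTAC7, of the plastid transcription machinery, the ferredoxin gene FD1 and the cyclophilin-like AT3G15520.

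Silencing genes were 3, and limma called 0 of them. All 3 were higher at an unadjusted p under 0.05, as were all 69 members, and nothing is read from this, since the thresholds used the same contrast. MET1, the CG methyltransferase, had 9.50 and 10.8 in ddcc, against 1.45 and 2.57 in wild type (adjusted p = 0.0703). RDR2, the polymerase that makes double-stranded RNA for the small RNAs of the DRM2 pathway, had 9.53 and 12.02 in ddcc, against 2.74 and 1.44 in wild type (adjusted p = 0.0636). FDM1, an XH/XS protein of that pathway, had 9.43 and 8.52 in ddcc, against 2.16 and 1.41 in wild type. Its near-identical relative FDM2 had 43.8 and 50.7 in ddcc, against 12.99 and 9.48 in wild type and was called higher (log2 fold change 1.94, SE 0.35, limma adjusted p = 0.00493). The 2 genes share stretches of up to 98.4% identity, so reads of the more abundant one may be counted in the other. In TAIR10.1 coordinates MET1 spans 19932114 to 19938470 on chromosome 5, RDR2 spans 6780449 to 6784632 on chromosome 4 and FDM1 spans 5465251 to 5469180 on chromosome 1.

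The group of other or unknown roles had 16 members. Those not yet described were AT4G24050, AT2G17920, AT3G30770, AT1G37162, AT3G28899, AT5G44660, AT2G34240, AT3G06680, AT2G40935, AT5G58000 and AT1G18265, with ddcc means of 9.56 to 18.5. AT4G24050, an oxidoreductase-like gene, had 17.8 and 19.3 in ddcc, against 0.88 and 2.52 in wild type. AT3G30770, annotated as an aspartyl protease, had 12.01 and 19.1 in ddcc, against 0 and 1.22 in wild type and lies with 43 annotated pseudogenes within 100 kb. AT1G37162 has no gene in the annotation used, and its values were 9.74 and 20.2 in ddcc, against 1.71 and 0.0705 in wild type.

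In all, 17 members overlap another annotated locus and 14 of these a protein-coding one, and 11 have a copy elsewhere that matches at least 100 bases at 95% identity or more. Together 28 members have one or the other, and their reads are uncertain in origin, also because the strand of counting is not given.

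What the members share beyond the thresholds was looked for in the genome, as a description with no test, and most shares lay near those of all 26714 nuclear genes with a model. At least 1 genomic copy of at least 100 bases and 80% identity was found in the 1000 upstream bases of 24 of 68 members (35.3%), against 35.4% of all genes. At least 5 copies were found for 12 members (17.6%), against 12.7%, and at least 20 for 4 members (5.88%), against 5.54%. These 4 were AT1G64650, AT3G28899, GPRI1 and MET1. At least 10 annotated pseudogenes lay within 100 kb of 3 members (4.41%), against 9.31% of all genes and 6 of the 16 loci left out. Other genes within 100 kb had a median of 51.5 for the members, 53 for all genes and 43 for the loci left out.

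The letters TATAAA stood in the window from 250 bases before to 50 after the start in 41 members (60.3%), on either strand, against 52.6% of all genes. The G-box letters CACGTG were found in 8.82% against 7.79%, and the RY letters CATGCA of seed genes in 11.8% against 9.78%. A match is a description and not a site. Members had a median transcript length of 1840.5 bases and 5.5 exons, against 1505 and 4 in all genes, and 14.7% had a single exon, against 20.4%. The thresholds act on values not normalised for gene length, so length bears on which genes pass. All genes also include ones with no read. How far this sets the differences in length and exons was not tested. Upstream cytosines in the CHH context, a target of DRM2 and CMT2, numbered 24.2 per 100 bases in the median member and 24.5 in the median gene.

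**Figure D4:**
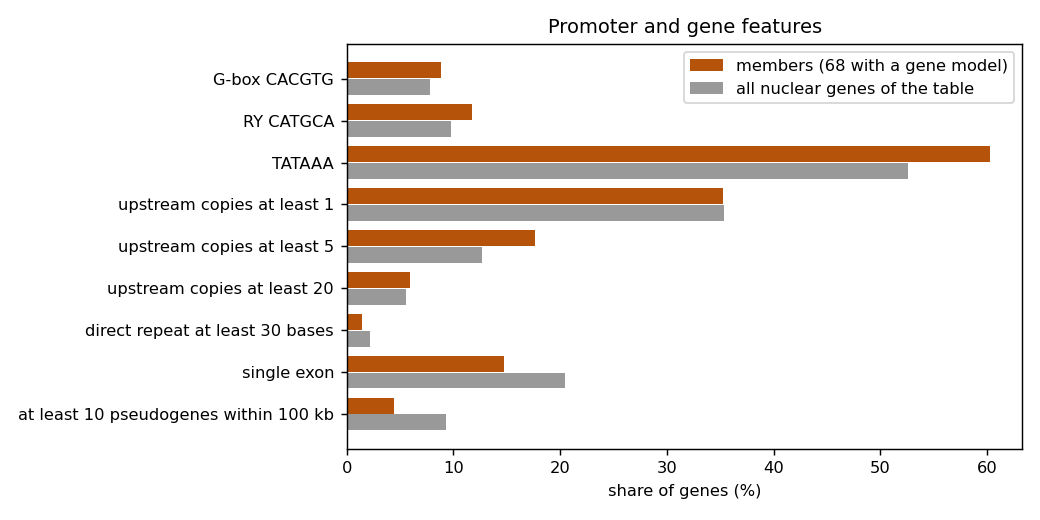
Share of genes with each feature, for the 68 members with a gene model (brown) and all nuclear genes of the table (grey). Copies are of at least 100 bases and 80% identity in the 1000 bases upstream, direct repeats lie in the same 1000 bases, and motifs are on either strand from 250 before to 50 bases after the start. The largest shares are those of TATAAA, 60.3% against 52.6%.

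Members were spread over all 5 chromosomes, with 18 on chromosome 1, 13 on 2, 11 on 3, 11 on 4 and 15 on 5. Within 100 kb of each other lay 6 pairs: AT1G08890 with ERD6, AT2G34100 with AT2G34240, AT2G40860 with AT2G40935, ESM1 with RTFL10, AT3G60950 with AT3G61030 and EIR1 with CIA2. In no pair were the members next to each other, as at least 3 genes lay between them.

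The genes next to the members were not chosen by the thresholds. Of 136 neighbours, 92 were tested and 6 were called higher (6.52%), against 3.03% of all genes tested, and 2 were called lower (2.17%), against 3.45%. PIF4, a factor that promotes growth in warmth and shade, lies 3465 bases from NAC042 and had 102 and 106 in ddcc, against 23.5 and 7.38 in wild type (log2 fold change 2.82, SE 0.40, limma adjusted p = 0.0012). AT5G26280, a TRAF-like gene 437 bases downstream of AT5G26270, had 27.1 and 23.1 in ddcc, against 6.69 and 2.92 in wild type (log2 fold change 2.13, adjusted p = 0.0131). AT3G14220, a GDSL lipase-like gene 981 bases downstream of ESM1, had 32.0 and 38.6 in ddcc, against 8.74 and 5.52 in wild type (depth-corrected read ratio 4.65, 95% counting interval 2.76 to 8.16, limma adjusted p = 0.00651).

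AT1G54010, which is a GDSL lipase-like gene next to GLL22 and its closest relative at 91.2% identity, had 87.8 and 37.1 in ddcc, against 3.89 and 7.65 in wild type (log2 fold change 3.05, SE 0.45, limma adjusted p = 0.00146). AT4G36190 and AT3G15530 were the other higher neighbours, of which AT3G15530 overlaps AT3G15520. The proline dehydrogenase gene ERD5, next to AT3G30770, had 271 and 368 in ddcc, against 812 and 801 in wild type and was called lower (log2 fold change -1.35, adjusted p = 0.00347), as was AT1G68140, next to IDD14. Leaving out ddcc replicate 1 or 2 left limma with 0 neighbours called higher (9 and 8 where p, unadjusted, was under 0.05), and leaving out wild-type replicate 1 or 2 left 5 and 2. Of the lower neighbours, 0 were called without either ddcc replicate (5 and 1 where p, unadjusted, was under 0.05), and 1 without either wild-type replicate. With equal nuclear totals 11 neighbours were higher and 1 was lower.

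**Figure D5:**
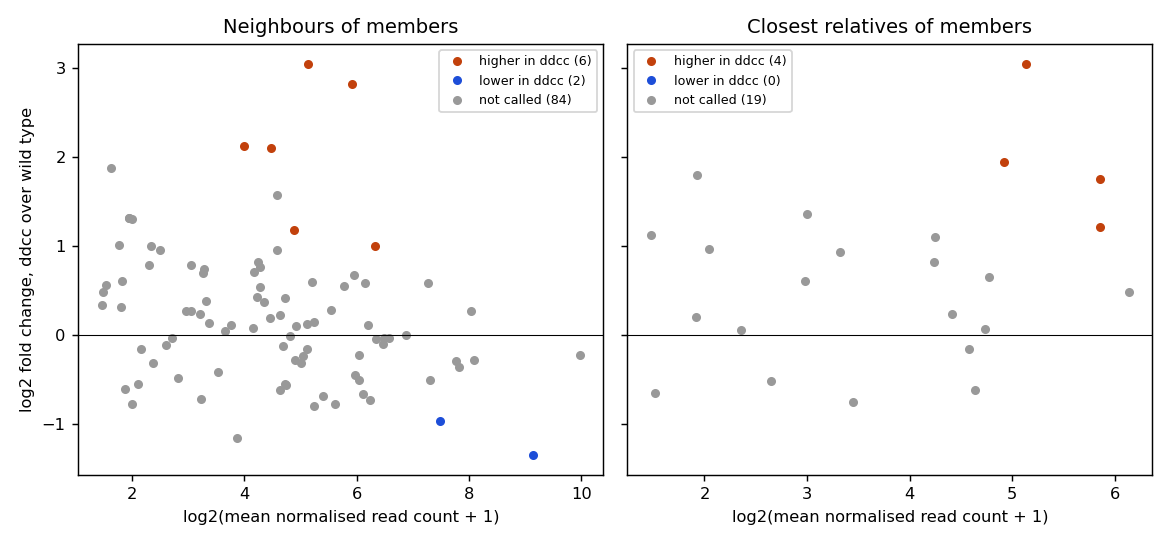
Log2 fold change of ddcc over wild type against log2 of the mean normalised read count plus 1, for tested neighbours (left) and closest relatives (right) that are not members, with genes called higher in orange, called lower in blue and not called in grey. Among the neighbours 6 are higher and 2 lower, and among the relatives 4 are higher and none lower.

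In the search for the closest relative of each member, by alignment of coding sequences, the loci left out by name were passed over. A closer relative may thus be missing for some members. For AT4G16410 the search gave AT4G16400, which overlaps it and aligned over 40 bases only. Of 52 closest relatives found in this way that are not members, 23 were tested. In limma 4 were called higher (17.4%, against 3.03% of all genes tested) and 0 lower, and the median log2 fold change was 0.66, against 0.02 for all genes. At an unadjusted p under 0.05, 8 were higher and 0 lower. Besides FDM2 and AT1G54010 these were PEN3, the relative of ABCG35 and a transporter of defence compounds, with 85.1 and 91.8 in ddcc, against 24.9 and 25.1 in wild type (log2 fold change 1.76, adjusted p = 0.00221), and AT3G06700, a ribosomal protein gene related to AT3G06680, with 75.7 and 84.5 in ddcc, against 34.0 and 33.04 in wild type. The other 29 relatives, such as IGMT3, LAX1, EXPA6 and scpl21, were too low to test, so no difference was detectable at this depth. With either ddcc replicate left out, limma called 0 relatives higher (5 each time where p, unadjusted, was under 0.05), and with either wild-type replicate left out it called 3.

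The list of 25 genes of the silencing machinery holds the members MET1 and RDR2. It also holds genes that act against silencing, the DNA demethylase genes DML1, DME, DML2 and DML3 and the histone demethylase gene IBM1. Of the other 23 genes, 17 were tested, and 2 were called higher and 2 lower. IDN2 and DME were called higher and IBM1 and DML1, also known as ROS1, lower. Of these, only IDN2 acts in silencing, and the rest are demethylase genes. DML1, which removes methylated cytosines, had 6.06 and 10.7 in ddcc, against 174 and 162 in wild type. At an unadjusted p under 0.05, 4 of the 17 were higher and 2 lower. With ddcc replicate 1 or 2 left out, limma called 0 of these genes (4 and 3 were higher, and 2 lower each time, where p, unadjusted, was under 0.05), and with either wild-type replicate left out it called 1 higher and 1 lower. A further list holds 13 genes entered as known to be silenced by methylation or imprinted. Its entry BNS is a locus annotated as APC8, of the anaphase-promoting complex, and may not belong in the list. Of the 13, SDC met the thresholds and is among the loci left out. Of the other 12, 5 were tested, and limma called 0 of them. At an unadjusted p under 0.05, 1 of them was higher and 2, FIS2 and the APC8 entry, lower. Of the 7 germination genes listed, 4 met the thresholds, the member GASA6 and the left-out loci EXPA1, EXPA2 and CP1, so nothing is read from their values. Of the other 3, MAN7 and RGL2 were tested and both were called higher. MAN7, a mannanase gene, had 48.5 and 56.7 in ddcc, against 10.8 and 8.12 in wild type (log2 fold change 2.30, limma adjusted p = 0.00185). RGL2, a repressor of gibberellin responses, had 61.2 and 51.0 in ddcc, against 13.8 and 13.3 in wild type (log2 fold change 1.93, adjusted p = 0.00347). With either ddcc replicate left out, limma called 0 of these (2 where p, unadjusted, was under 0.05), and with either wild-type replicate left out it called both. Of the leaf and seedling list, RBCS1A was called higher among 3 tested. At an unadjusted p under 0.05, 1 was higher and 1, LHCB3, lower, with 6.98 and 3.77 in ddcc, against 18.3 and 14.7 in wild type. With either ddcc replicate left out, limma called 0 of this list (RBCS1A was higher where p, unadjusted, was under 0.05). In the fit of all libraries limma made 0 calls in the lists for endosperm, seed coat, pollen, silique wall and flower, and root, with 3, 4, 1, 2 and 2 tested. At an unadjusted p under 0.05, the endosperm list had 1 higher and 1 lower, and the seed coat and root lists had 1 higher each. Without wild-type replicate 1, limma called 1 seed coat gene higher. The summed level of the leaf and seedling list was 88.5 and 89.5 in ddcc, against 30.5 and 32.8 in wild type. Without RBCS1A it was 18.9 and 18.2 in ddcc, against 25.7 and 21.4 in wild type, so the higher sum in ddcc rests on that gene. The summed level of the endosperm list was 23685 and 32221 in ddcc, against 13984 and 15749 in wild type. Nearly all of the endosperm sum was EPR1. Without EPR1 it was 11.7 and 8.63 in ddcc, against 23.9 and 17.5 in wild type, so the higher sum in ddcc rests on that gene. FIS2 had 4.65 and 2.52 in ddcc, against 10.4 and 13.05 in wild type. AGL62 had 7.06 and 6.10 in ddcc, against 13.5 and 4.49 in wild type. The endosperm markers RGE1, WRKY10, IKU2 and PHE1 had no read in any library. The part of other tissues in the values of the members was not tested.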

How the data were processed

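Per the labels, total RNA of whole seeds was amplified with a NuGEN kit and made into Illumina libraries. The submitters' processing notes name the tools Bowtie 0.12.7 and edgeR 3.10.5 and the build TAIR10, and no source used here gives settings for mapping, counting or strand. The tables deposited by the authors hold a signal for 27416 genes, read counts normalised for library size but not for gene length. Within each genotype, inverting the equalisation of library sizes in the authors' package edgeR gave whole reads within 0.01 for 100% of value pairs, at a dispersion of 0.0327. The deposited values themselves have uneven steps, so they were given no count test. None was run on the recovered reads either. Reads serve for depths, for floors of 3 reads over a genotype and for exact binomial 95% intervals, which cover counting error only.

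Genotypes were compared with limma 3.58.1 in R 4.3.3 on log2(value + 1 unit), where the pseudocount unit was 1.56, with a variance trend and a filter at a mean of 1 unit. Benjamini-Hochberg adjustment ran over all 15780 genes, and calls needed an adjusted p under 0.05. Fold changes of low genes are understated on this scale. Nothing says that replicates came from separate plants beyond the label of biological replicate, so p-values measure the spread between these samples.

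The members, gene lists and tests were chosen with earlier results of these data known, and role groups were assigned after the values were seen. The genes named were the 24 with the highest ddcc means, those without wild-type reads, the highest of each product class, near or related pairs and those at the thresholds. Other members are named to account for all. Annotation and sequence came from RefSeq TAIR10.1, and copies, repeats and relatives were found with BLAST+ 2.17.0 (relatives at an e-value under 1e-10). Alternatives covered pseudocounts, filters, scalings, limma without a trend or robust, a replicate block, other thresholds and each library left out. The alternatives for neighbours, relatives and silencing genes were added after the data were seen.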

Additional observations from a re-analysis of the deposited data

How the results depend on the processing

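The number of members depends on the thresholds, and each value rests on few reads. It was 33 with a wild-type ceiling of 2 and 151 with a ceiling of 5, 114 with a ddcc minimum of 6 and 23 with a minimum of 12, and 110 with equal nuclear totals. It stayed at 69 with TMM factors, and ran from 112 to 233 with 1 library left out, where fewer values have to pass.

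Of the 69 members 53 were called, against 25 without a filter, 26 with a filter at 5 units and 15 in limma without a trend, and 0 to 28 with 1 library left out. The filter at 5 units also removes members from the test. With equal nuclear totals all 69 members were called, and 6 relatives were called higher. Over all genes, 478 were called higher and 545 lower. The higher calls numbered 191 without a filter, 1435 with equal nuclear totals, 32 without a trend and 1 to 283 with 1 library left out, and the lower calls 145, 207, 1 and 0 to 283. With equal nuclear totals the median log2 fold change of all genes was 0.38, against 0.02 in the deposited scaling. The neighbours called higher were 6, but 3 without a filter, 11 with equal nuclear totals, 0 without a trend (13 at an unadjusted p under 0.05) and 0 to 5 with 1 library left out. The neighbours called lower were 2, but 1 without a filter, 1 with equal nuclear totals, 1 on quantile-normalised values, 0 without a trend (4 at an unadjusted p under 0.05) and 0 to 1 with 1 library left out. The relatives called higher were 4, but 0 without a trend (9 at an unadjusted p under 0.05) and 0 to 3 with 1 library left out. In the silencing list, which holds the members MET1 and RDR2, the genes called higher were 2, but 1 without a filter, 6 with equal nuclear totals, 0 without a trend (7 at an unadjusted p under 0.05) and 0 to 1 with 1 library left out. Those called lower were 2, but 1 without a filter, with equal nuclear totals or without a trend, and 0 to 1 with 1 library left out. The median log2 fold change of the members was 2.41, but 2.89 and 1.21 with pseudocounts of 0.5 and 5 units, 2.88 with a filter at 5 units, 2.24 after quantile normalisation, 2.68 with equal nuclear totals and 2.28 to 2.62 with 1 library left out. Its sign held in all of these, as the thresholds dictate. Apart from lost calls and constructions named here, the cause of these shifts was not tested. When a ddcc library is left out, the lone one is assumed to vary like the wild-type pair.

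The replicate numbers were not taken to pair the samples. Over 15780 genes the deviations of same-numbered libraries correlated at -0.05, but with so few libraries this cannot show whether samples were paired. A replicate block gave 60 members called, 670 genes higher and 711 lower, 7 neighbours and 4 relatives higher, and 5 silencing genes higher.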
